A study of Mus musculus with 9 samples.

Results

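The genes of melanin synthesis and of melanosome structure described here are 10 genes taken by symbol, Tyr, Tyrp1, Dct, Pmel, Mlana, Oca2, Slc45a2, Slc24a5, Gpr143 and Trpm1, out of 21676 genes in the count table. The gene IDs of the files are 22173 for Tyr, 22178 for Tyrp1, 13190 for Dct, 20431 for Pmel, 77836 for Mlana, 18431 for Oca2, 22293 for Slc45a2, 317750 for Slc24a5, 18241 for Gpr143 and 17364 for Trpm1. Tyr, Oca2 and Trpm1 lie on chromosome 7, Tyrp1 on 4, Dct on 14, Pmel on 10, Mlana on 19, Slc45a2 on 15, Slc24a5 on 2 and Gpr143 on X. All 10 passed the filter on low counts that left 13807 tested genes. The RNA came from B16 cells, a mouse melanoma line that makes pigment, grown in culture. Cells carrying the hairpin shAD4-2, cells carrying the hairpin shAD4-1 and shControl cells, which carry a control hairpin, were each sequenced in 3 libraries that the design text calls biological replicates of knockdown derivatives and of control cells. ADGRL4, a receptor of the adhesion G protein-coupled family, is named in the title of the series; Adgrl4 itself is not analysed here, and the knockdown was therefore not checked. No other treatment is given for any group, and whether each hairpin group is a clone or a pool of infected cells is not given in the sources used here. The p-values below measure the spread between these libraries.

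Melanin is made in melanosomes, organelles related to lysosomes. Tyrosinase (Tyr) oxidises tyrosine to dopaquinone in the step that limits the rate of the whole pathway, dopachrome tautomerase (Dct) and tyrosinase-related protein 1 (Tyrp1) act further down on the way to eumelanin, and Pmel forms the fibrils on which the pigment is laid down. Mlana helps Pmel to mature, Oca2, Slc45a2 and Slc24a5 are transport proteins that set the ionic conditions for tyrosinase, Gpr143 is a receptor of the melanosome membrane that controls melanosome size, and Trpm1 is a cation channel whose gene carries the microRNA miR-211. Most of these genes are known targets of MITF, the transcription factor of the melanocyte lineage, which binds E-boxes.

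The promoter letters of the enzymes are shown first because Tyr, Tyrp1 and Dct share a stretch that MITF is known to bind, the M-box. Promoters came from RefSeq on the build GRCm38.p6, another build than the GRCm39 of the counts. They were matched by gene ID and give the 250 bases before each annotated start. Entries were used for 6 of the 10 genes, with 7 starts since Trpm1 has a pair of them; no entry was used for Pmel, Mlana, Slc45a2 and Gpr143. The 3 stretches below are written 5′ to 3′ on the strand of each gene, with the letters that the 3 genes have in common in capitals.
Tyr (chr7:87493514-87493547, minus strand): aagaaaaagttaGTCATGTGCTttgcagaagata
Tyrp1 (chr4:80834153-80834186, plus strand): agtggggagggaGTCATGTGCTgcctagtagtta
Dct (chr14:118052377-118052410, minus strand): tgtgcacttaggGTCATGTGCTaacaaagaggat

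The shared letters GTCATGTGCT lie 23 to 14 bases before the start of Tyr, 48 to 39 bases before that of Tyrp1 and 152 to 143 bases before that of Dct. Searched on both strands, they occur in 0.155% of 32851 promoter windows of the same length. The longer form AGTCATGTGCT, which Tyr and Tyrp1 have, occurs in 0.0213%. Both forms were taken as the longest stretch round CATGTG that these promoters share, so their presence there was fixed by that choice. The hexamer CATGTG inside them was found in 12.3% of all windows and the palindromic E-box CACGTG in 6.02%, with 17.6% of the windows holding either. Each of the 7 windows of the members held at least 1 of these hexamers. Dct had a second CATGTG 232 to 227 bases before its start on the other strand, and Slc24a5 had it 13 to 8 bases before its start, also on the other strand. Such matches describe letters and do not show binding.

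**Figure D1:**
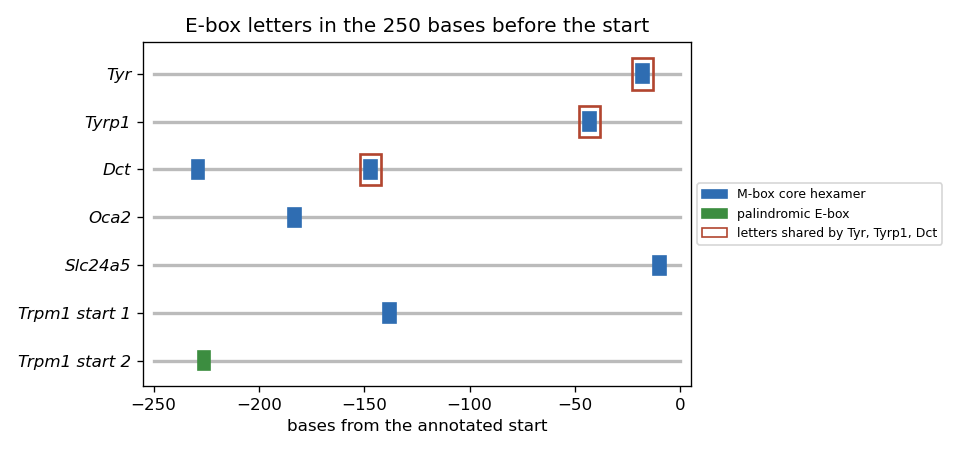
Positions of E-box letters in the 250 bases before 7 annotated starts of 6 genes, with bases from the start on the x axis. Blue boxes are CATGTG on either strand, the green box is CACGTG and red frames mark the 10 letters shared by Tyr, Tyrp1 and Dct.

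The windows of Oca2 and of both Trpm1 starts are printed whole, since these 2 genes moved at least 2-fold against control with both hairpins, as did 14.7% of all genes with shAD4-2 and 12.2% with shAD4-1. Capitals mark CATGTG, its reverse complement CACATG, or CACGTG.
Oca2 (chr7:56239509-56239758, plus strand): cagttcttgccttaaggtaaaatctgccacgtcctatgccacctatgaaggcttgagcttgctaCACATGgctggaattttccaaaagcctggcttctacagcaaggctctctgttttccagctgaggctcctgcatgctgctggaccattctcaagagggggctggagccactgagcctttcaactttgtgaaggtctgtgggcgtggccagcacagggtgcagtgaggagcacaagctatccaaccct
Trpm1 start 1 (chr7:64153585-64153834, plus strand): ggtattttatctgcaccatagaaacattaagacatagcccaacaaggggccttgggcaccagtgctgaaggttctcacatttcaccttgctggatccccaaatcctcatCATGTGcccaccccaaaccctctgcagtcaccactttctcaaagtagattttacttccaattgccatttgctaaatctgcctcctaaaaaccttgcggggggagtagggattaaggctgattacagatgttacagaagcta
Trpm1 start 2 (chr7:64185209-64185458, plus strand): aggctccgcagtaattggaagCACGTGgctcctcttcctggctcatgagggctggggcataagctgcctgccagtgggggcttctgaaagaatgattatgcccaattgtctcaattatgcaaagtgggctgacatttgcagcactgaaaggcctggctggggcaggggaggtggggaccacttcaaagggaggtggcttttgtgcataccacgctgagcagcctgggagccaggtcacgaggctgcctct

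The libraries held 31.3 to 36.9 M reads. Among the controls, replicate 1 differed most, with a chi-square per degree of freedom of 12.4 and 18.1 against replicates 2 and 3, while that pair gave 3.44. It was also the control library with the highest value for all 10 genes, by 1.05 to 1.38 times the mean of the other controls (median 1.27), whereas 38.5% of all tested genes were highest there. Changes of the members and of Mitf against control are given with and without it. The 13 mitochondrially encoded protein genes took 3.72 ± 0.15% of the reads in shAD4-2, 3.74 ± 0.1% in shAD4-1 and 2.45 ± 0.16% in control libraries (SD, n = 3), and with these genes left out the same numbers of members were called. The melanocyte lineage factors Sox10, Pax3 and Mitf were read in every library at 103 CPM or more (counts per M reads of TMM-scaled library size). Of markers of other skin cells, 2 of 6 listed keratinocyte genes summed to 0 CPM in shAD4-2 and shAD4-1 libraries and 0 to 0.107 CPM in control libraries. For 3 of 5 leukocyte genes the sums were 0.162 to 0.226, 0.138 to 0.330 and 0.0283 to 0.0923 CPM in shAD4-2, shAD4-1 and control libraries, and for 4 of 5 endothelial genes 1.55 to 1.84, 0.936 to 1.05 and 0.585 to 0.697 CPM, with Ptprc and Cdh5 each at 0 in all libraries but a single shAD4-1 library. The sums of 4 of 5 fibroblast genes were 12.4 to 14.0 CPM in shAD4-2, 10.4 to 12.2 CPM in shAD4-1 and 5.08 to 7.10 CPM in control libraries, with Lum likewise at 0 in all but a single shAD4-1 library. Of these genes, Col1a2 stood at 4.29 to 5.87, 3.08 to 4.36 and 0.368 to 0.831 CPM in shAD4-2, shAD4-1 and control libraries. In the same order, Col1a1 stood at 4.5 to 4.83, 3.66 to 4.6 and 2.12 to 2.97 CPM. Vwf stood at 1.42 to 1.78, 0.822 to 0.936 and 0.34 to 0.616 CPM, while Pdgfra and Pecam1 overlapped between the groups. The listed markers left out of these sums were absent from the count table. The part of these shifts in the results was not tested. In bulk RNA, fewer pigmented cells and less RNA of these genes per cell cannot be told apart.

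Dct and Tyrp1 were among the most abundant transcripts of these cells, while the other members ranked lower. In FPKM, which scales reads to gene length and depth and is given as the authors deposited it, Dct stood at 2251 ± 154 in shAD4-2, 2013 ± 32.7 in shAD4-1 and 2309 ± 81.4 in control libraries (SD, n = 3), between the fifth and the tenth place among all genes of a library. Tyrp1 followed at 1333 ± 17.6, 1324 ± 5.57 and 1747 ± 176 FPKM in the same order of groups. Tyr stood at 4.77 ± 0.0632 FPKM in shAD4-2, 5.25 ± 0.0993 FPKM in shAD4-1 and 7.60 ± 1.59 FPKM in control libraries, at places 6067 to 8011. Within a library Tyrp1 exceeded Tyr 275 to 283-fold in shAD4-2, 246 to 257-fold in shAD4-1 and 208 to 256-fold in control. These ratios depend on the gene lengths behind the FPKM, which follow from the deposited values as 7.11 kb for Tyr and 2.85 kb for Tyrp1; per read instead of per length the gap is smaller.

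Below the 2 abundant enzymes came Mlana and Pmel at 260 to 429 FPKM as group means. Their ranges overlapped in the shAD4-2 and the control libraries and not in the shAD4-1 libraries, where Mlana (308 FPKM) was above Pmel (260 FPKM). Slc24a5 and Slc45a2 stood at 80.4 to 151 FPKM and Gpr143 at 11.1 to 14.3 FPKM. The lowest places were those of Tyr, Trpm1 and Oca2. In control libraries Tyr and Trpm1 overlapped and Oca2 was last at 1.24 ± 0.189 FPKM, while in shAD4-2 libraries Oca2 (3.14 ± 0.335 FPKM) was above Trpm1 (2.11 ± 0.0453 FPKM) in every library. Together the 10 genes took 1.06 to 1.16% of the reads in shAD4-2, 0.981 to 1.00% in shAD4-1 and 1.14 to 1.33% in control libraries, and Dct and Tyrp1 made up 79.5 to 84.2% of these.

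**Figure D2:**
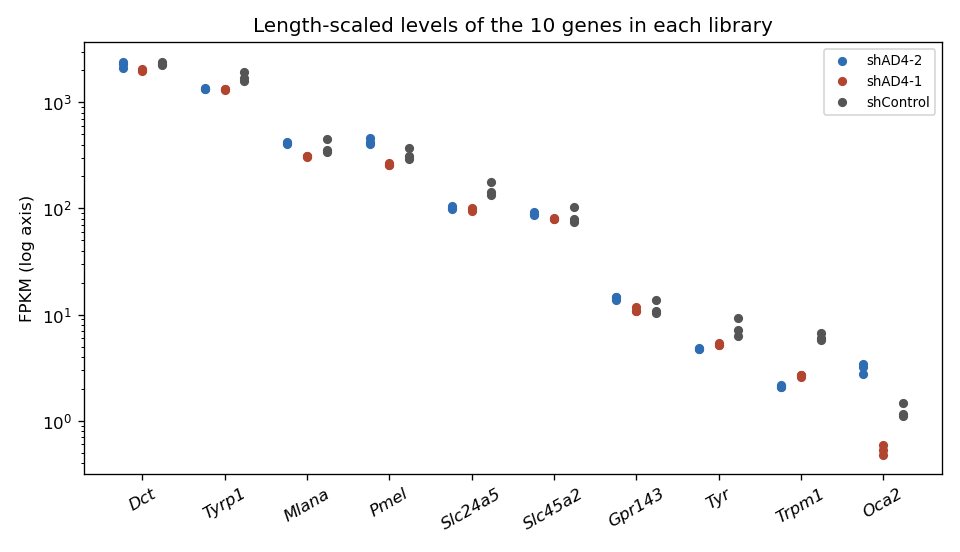
Deposited FPKM of the 10 genes in each library on a log axis, with points for the 3 libraries of shAD4-2, shAD4-1 and shControl. Dct and Tyrp1 lie above the other genes in every library, while Tyr lies below 10 FPKM in every library.

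With shAD4-1 every called member was lower, and with shAD4-2 the called members divided. With edgeR's quasi-likelihood test and a Benjamini-Hochberg adjusted p of at most 0.05, 8 of the 10 were lower and none higher with shAD4-1 against control, in a comparison that called 65% of all tested genes, 32.7% higher and 32.3% lower. With shAD4-2 against control 4 were higher and 4 lower, where 69% of all genes were called, 34.2% higher and 34.8% lower. Between the hairpins 5 were higher in shAD4-2 and 1 lower, where 27.4% of all genes were called, 13.4% higher and 14% lower. Median log2 fold changes of the 10 genes were 0.07 with shAD4-2 against control, -0.30 with shAD4-1 against control and 0.16 between the hairpins, beside -0.0111, -0.0103 and -0.00492 over all tested genes.

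Tyr, Tyrp1, Slc24a5 and Trpm1 were lower with both hairpins and no member was higher with both. Over all tested genes, 55.6% passed with both hairpins and the same sign, 28.1% higher and 27.6% lower. Pmel, Mlana and Oca2 were lower with shAD4-1 and higher with shAD4-2, a pattern found in either order in 91 of 13807 genes (0.659%). The 2 comparisons share their control libraries. Dct was called lower with shAD4-1 and Gpr143 higher with shAD4-2, neither being called with the other hairpin, and Slc45a2 was called with neither. Libraries of the groups did not overlap for 7 of 10 genes with shAD4-2 against control (70.6% of all genes), 8 with shAD4-1 against control (68% of all genes) and 8 between the hairpins (44.5% of all genes). No count of members moved by more than 2 genes in any alternative tried.

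**Figure D3:**
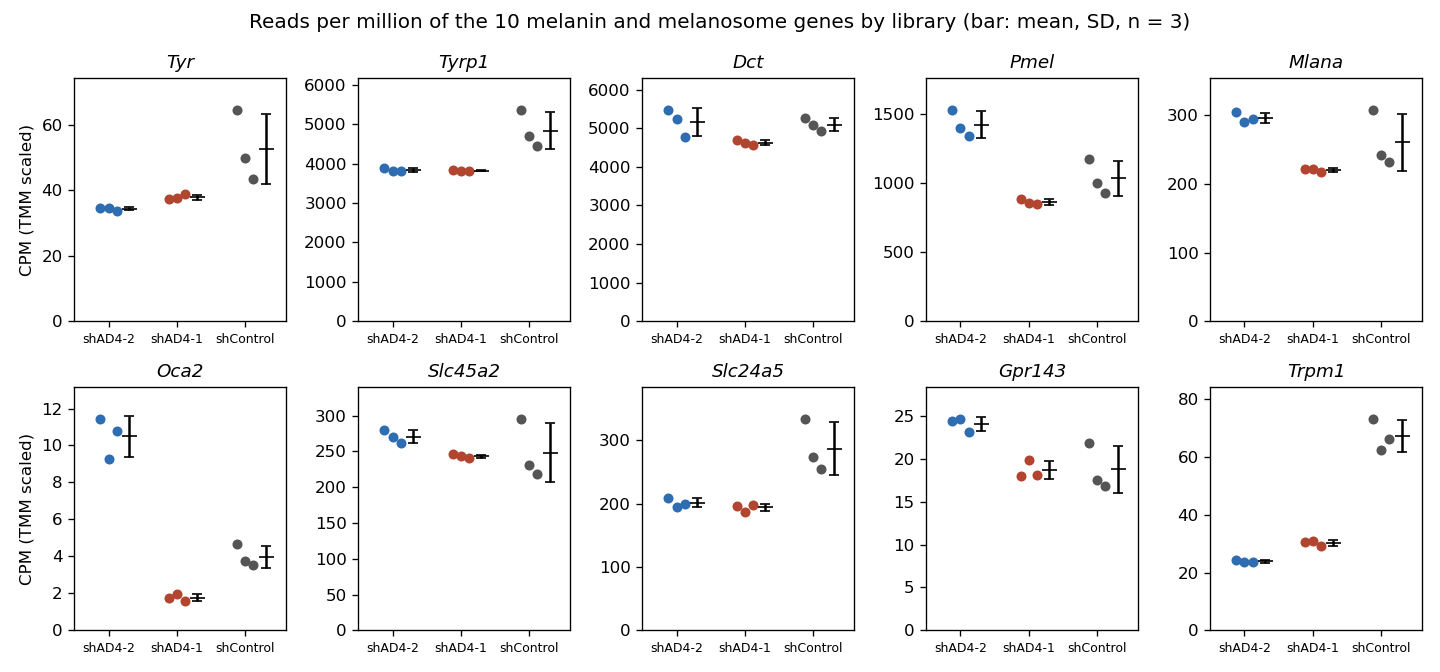
Level in CPM (TMM scaled, axes from 0) of the 10 genes, with 1 point per library and the mean and SD of 3 libraries beside them, for shAD4-2, shAD4-1 and shControl from left to right. Control replicate 1 is the uppermost control point in all 10 panels, and Oca2 and Pmel are highest with shAD4-2 and lowest with shAD4-1.

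**Figure D4:**
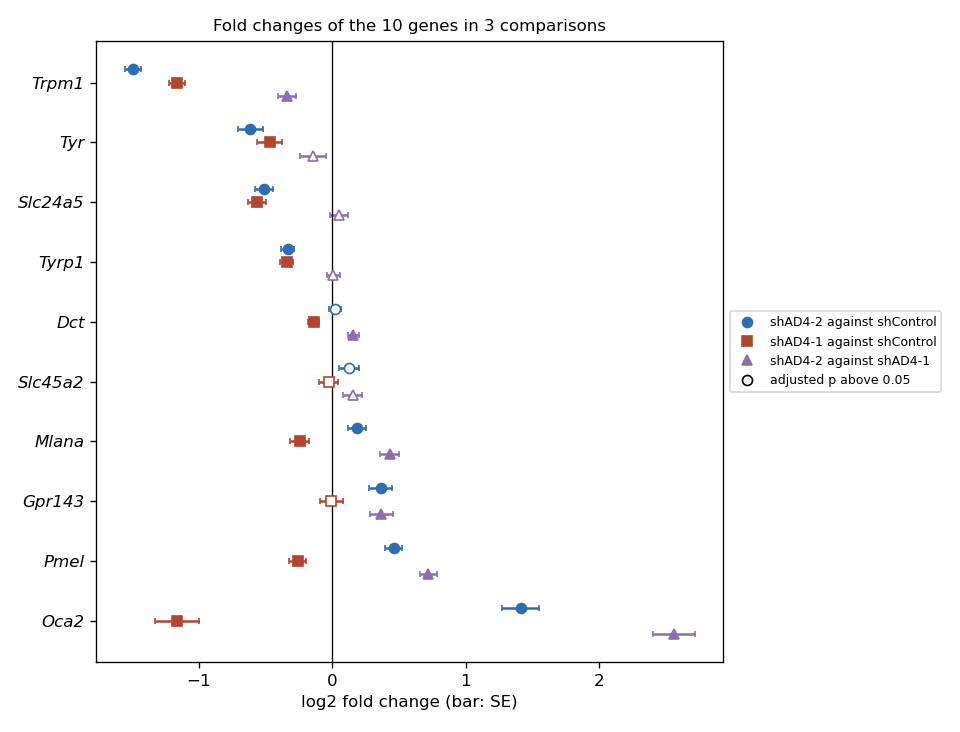
Log2 fold changes of the 10 genes with SE bars from edgeR in 3 comparisons, ordered by the change with shAD4-2 against control, with open symbols for adjusted p above 0.05. Trpm1, Tyr, Slc24a5 and Tyrp1 lie left of 0 for both comparisons with control, and Oca2, Pmel and Mlana lie on opposite sides of 0.

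Among the 3 enzymes of the tyrosinase family, Tyr and Tyrp1 were lower with both hairpins. Tyr had 34.5, 34.7 and 33.8 CPM in shAD4-2, 37.3, 37.7 and 38.7 CPM in shAD4-1 and 64.4, 49.9 and 43.4 CPM in control libraries. No hairpin library reached the lowest control library, and the control libraries varied more (CV 20.5%) than those of shAD4-2 (1.36%) or shAD4-1 (1.96%). Tyr fell 1.53-fold with shAD4-2 (log2 fold change -0.61, SE 0.10, adjusted p = 1.68e-05) and 1.38-fold with shAD4-1 (-0.47, SE 0.09, adjusted p = 0.000274). Without control replicate 1 these changes were -0.43 and -0.29 (adjusted p = 5.1e-07 and 0.000122), so that the fall with shAD4-1 was 1.61 times smaller on the log2 scale. Between the hairpins Tyr stood at -0.14 (SE 0.10, adjusted p = 0.301), a difference called when those groups were fitted alone (-0.14, adjusted p = 0.0375).

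Tyrp1 had 3902, 3815 and 3809 CPM in shAD4-2, 3834, 3814 and 3815 CPM in shAD4-1 and 5359, 4708 and 4450 CPM in control libraries. The hairpin libraries lay within a narrow band below all controls. Tyrp1 fell 1.26-fold with shAD4-2 (-0.33, SE 0.05, adjusted p = 8.37e-06) and 1.27-fold with shAD4-1 (-0.34, SE 0.05, adjusted p = 7.37e-06), and without control replicate 1 by 0.24 and 0.26 on the log2 scale. Between the hairpins its log2 fold change was 0.01 (SE 0.05, adjusted p = 0.927).

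Dct, the most abundant member, was called lower with shAD4-1 and was not called with shAD4-2. It had 5469, 5239 and 4774 CPM in shAD4-2, 4695, 4619 and 4555 CPM in shAD4-1 and 5254, 5088 and 4927 CPM in control libraries. The shAD4-2 libraries spanned the control range, while those of shAD4-1 lay below it. Dct fell 1.10-fold with shAD4-1 (-0.14, SE 0.04, adjusted p = 0.00942) and stood at a log2 fold change of 0.02 with shAD4-2 (SE 0.04, adjusted p = 0.698). Dct stood at -0.11 with shAD4-1 and 0.05 with shAD4-2 without control replicate 1 (adjusted p = 0.00881 and 0.182). It was 1.12-fold higher in shAD4-2 than in shAD4-1 (0.16, SE 0.04, adjusted p = 0.011), a call that was lost without shAD4-2 replicate 1 (0.12, adjusted p = 0.0859). In limma on log2(FPKM + 1) with no filter on low values neither call held, with an adjusted p of 0.0707 for shAD4-1 against control (-0.20) and 0.238 between the hairpins (0.16). Within a library Dct exceeded Tyrp1 by 1.58 to 1.76 times in shAD4-2, by 1.5 to 1.54 times in shAD4-1 and by 1.23 to 1.39 times in control, in FPKM.

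Pmel and Mlana, proteins of the early melanosome, went in opposite directions with the hairpins. Pmel had 1526, 1399 and 1338 CPM in shAD4-2, 885, 856 and 848 CPM in shAD4-1 and 1173, 998 and 927 CPM in control libraries. The 3 groups did not overlap, with the controls in the middle. Pmel rose 1.38-fold with shAD4-2 (log2 fold change 0.46, SE 0.06, adjusted p = 3.74e-06) and fell 1.20-fold with shAD4-1 (-0.26, SE 0.06, adjusted p = 0.00158). Without control replicate 1 the changes were 0.57 and -0.15 (adjusted p = 6.83e-13 and 0.00151), so that the fall with shAD4-1 was 1.72 times smaller on the log2 scale. Pmel was 1.65-fold higher in shAD4-2 than in shAD4-1 (0.72, SE 0.06, adjusted p = 5.07e-07).

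Mlana had 304, 290 and 295 CPM in shAD4-2, 221, 222 and 216 CPM in shAD4-1 and 307, 243 and 231 CPM in control libraries. Control replicate 1 lay above all shAD4-2 libraries and the other controls lay below them, so that those groups overlapped. Mlana was 1.35-fold higher in shAD4-2 than in shAD4-1 (0.43, SE 0.07, adjusted p = 0.000201), a difference in which the groups were apart. It fell 1.18-fold with shAD4-1 (-0.24, SE 0.07, adjusted p = 0.00544), or by 0.10 on the log2 scale without control replicate 1 (adjusted p = 0.0128). It rose 1.14-fold with shAD4-2 (0.19, SE 0.07, adjusted p = 0.0236). Without control replicate 1 it was 0.33 (adjusted p = 1.87e-09), but it was lost without control replicate 2 (0.15, adjusted p = 0.102), without control replicate 3 (0.12, adjusted p = 0.112), without shAD4-2 replicate 1 (0.17, adjusted p = 0.0797), in DESeq2 (0.20, adjusted p = 0.109) and in limma on FPKM (0.14, adjusted p = 0.151 to 0.315).

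Pmel lies beside genes whose annotated spans overlap its own in RefSeq, Rab5b, Cdk2 and Dgka, and the strand setting of the counting is not given, so reads of overlapping parts cannot be told apart. Cdk2, a cyclin-dependent kinase that MITF is known to regulate, stood at log2 fold changes of 0.24 with shAD4-2 and -0.34 with shAD4-1 (adjusted p = 0.00099 and 3.85e-05). Rab5b, an endosomal GTPase, stood at 0.35 and 0.07 (adjusted p = 1.81e-07 and 0.109). The levels of both, at most 171 CPM as a group mean, were below those of Pmel, whose group means were 863 to 1421 CPM. Dgka stood at 0.19 with shAD4-2 and 0.29 with shAD4-1, at no more than 16.6 CPM as a group mean. The part of shared reads in the changes of Pmel, Cdk2, Rab5b and Dgka was not tested. No overlapping gene was found in the RefSeq table for Tyr, Tyrp1, Dct, Mlana, Oca2, Slc45a2 and Gpr143.

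The transport proteins of the melanosome each behaved differently. Oca2, the P protein that raises melanosome pH through a chloride conductance, had the largest difference between the hairpins among the 10 genes. It had 11.4, 9.25 and 10.8 CPM in shAD4-2, 1.77, 1.96 and 1.6 CPM in shAD4-1 and 4.65, 3.74 and 3.54 CPM in control libraries. These values rest on 411, 286 and 335 reads in shAD4-2, 64, 69 and 58 reads in shAD4-1 and 151, 132 and 132 reads in control libraries. The 3 groups were well apart, with the controls in the middle. Oca2 rose 2.65-fold with shAD4-2 (log2 fold change 1.41, SE 0.14, adjusted p = 6.02e-08) and fell 2.23-fold with shAD4-1 (-1.16, SE 0.17, adjusted p = 6.54e-06). It was 5.92-fold higher in shAD4-2 than in shAD4-1 (2.56, SE 0.16, adjusted p = 4.94e-09), in a comparison where 1.69% of all genes were called with at least a 2-fold difference. Leaving out any library kept the difference between 2.49 and 2.65. The changes against control were 1.54 with shAD4-2 and -1.03 with shAD4-1 when control replicate 1 was left out.

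Slc24a5, a potassium-dependent sodium and calcium exchanger, had 209, 195 and 199 CPM in shAD4-2, 197, 187 and 198 CPM in shAD4-1 and 333, 273 and 254 CPM in control libraries. All hairpin libraries lay below all controls. It fell 1.42-fold with shAD4-2 (-0.51, SE 0.07, adjusted p = 2.4e-06) and 1.48-fold with shAD4-1 (-0.56, SE 0.07, adjusted p = 8.28e-07). Between the hairpins its log2 fold change was 0.05 (SE 0.07, adjusted p = 0.62). Slc24a5 stood at -0.38 with shAD4-2 and -0.43 with shAD4-1 without control replicate 1 (adjusted p = 1.46e-09 and 1.1e-10). In RefSeq its span overlaps that of Myef2, which was higher with both hairpins (0.53 and 0.35, adjusted p = 2.33e-06 and 0.000243).

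Slc45a2, a transporter that keeps the melanosome from turning acid, had 280, 271 and 262 CPM in shAD4-2, 246, 243 and 241 CPM in shAD4-1 and 295, 231 and 219 CPM in control libraries. Control replicate 1 lay above all other libraries, and both comparisons with control overlapped. Its log2 fold changes were 0.13 with shAD4-2 (SE 0.07, adjusted p = 0.134) and -0.03 with shAD4-1 (SE 0.07, adjusted p = 0.756). Without control replicate 1 it was called higher with shAD4-2 (0.28, adjusted p = 1e-07) and, with its sign changed, with shAD4-1 (0.12, adjusted p = 0.00406). Between the hairpins it stood at 0.15 (SE 0.07, adjusted p = 0.131) with all libraries and at 0.16 (adjusted p = 0.000316) without that control, with every shAD4-2 library above every shAD4-1 library. It was also called with no low-count filter, with shAD4-2 (0.13, adjusted p = 0.00372) and between the hairpins (0.15, adjusted p = 0.0039), and between the hairpins when those groups were fitted alone (0.16, adjusted p = 0.000493).

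Gpr143, the receptor behind ocular albinism, had 24.4, 24.6 and 23.2 CPM in shAD4-2, 18.0, 19.9 and 18.1 CPM in shAD4-1 and 21.9, 17.6 and 16.9 CPM in control libraries. The shAD4-2 libraries were above all others. Gpr143 rose 1.29-fold with shAD4-2 (0.36, SE 0.09, adjusted p = 0.00128) and was 1.29-fold higher in shAD4-2 than in shAD4-1 (0.37, SE 0.09, adjusted p = 0.00435). With shAD4-1 against control it stood at -0.01 (SE 0.09, adjusted p = 0.961). Gpr143 stood at 0.495 with shAD4-2 and 0.123 with shAD4-1 without control replicate 1 (adjusted p = 1.97e-06 and 0.162).

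Trpm1, the cation channel melastatin, fell furthest with shAD4-2 among the 10 genes. It had 24.5, 23.6 and 23.6 CPM in shAD4-2, 30.6, 30.9 and 29.1 CPM in shAD4-1 and 73.2, 62.6 and 66.2 CPM in control libraries. The groups were wide apart from control, and those of the hairpins were apart from each other. Trpm1 fell 2.82-fold with shAD4-2 (log2 fold change -1.49, SE 0.06, adjusted p = 3.3e-13) and 2.23-fold with shAD4-1 (-1.16, SE 0.06, adjusted p = 9.86e-12). Trpm1 stood at -1.42 with shAD4-2 and -1.08 with shAD4-1 without control replicate 1. It was 1.26-fold lower in shAD4-2 than in shAD4-1 (-0.34, SE 0.06, adjusted p = 0.000781), the only member called lower in that comparison. The microRNA genes Mir211 and Mir6416 lie within its annotated span and are not analysed here.

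The genes next to the members on the chromosome did not share 1 direction. Beside Tyrp1, Ptprd was called lower (log2 fold changes of -2.66 with shAD4-2 and -1.6 with shAD4-1), as was Sema6d beside Slc24a5 (-1.24 and -1.06). Beside Slc45a2, Amacr was called higher (0.54 and 0.66), as was Shroom2 beside Gpr143 (0.50 and 0.59). On the other side, Lurap1l beside Tyrp1 stood at -0.03 and 0.685 (adjusted p = 0.894 and 0.00573). Adamts12 beside Slc45a2 stood at -0.00128 and 0.27 (adjusted p = 0.988 and 0.0016). Usp51 beside Gpr143, at 0.306 CPM or less as a group mean, stood at 1.01 and 1.51 (adjusted p = 0.168 and 0.0329). The nearest tested genes beside Oca2, Herc2 and Ube3a, stood at log2 fold changes of -0.23 and -0.39 with shAD4-2 and -0.15 and -0.27 with shAD4-1, all called lower, and neither was called between the hairpins (adjusted p = 0.235 and 0.149). Beside Trpm1, Klf13 stood at -0.00374 with shAD4-2 and -0.00973 with shAD4-1 (adjusted p = 0.945 and 0.857), and Mtmr10 was lower (-0.30 and -0.36, adjusted p = 4.99e-05 and 8.17e-06). Beside Tyr, Nox4 was lower with both (-0.41 and -0.35, adjusted p = 0.0179 and 0.04) and Ctsc was called with neither (-0.05 and -0.04, adjusted p = 0.451 and 0.625). Gpc6 beside Dct was lower with shAD4-2 alone (-0.22 and -0.05, adjusted p = 0.00219 and 0.446). Gm31633 beside Dct was lower with both (-1.67 and -1.88, adjusted p = 4.84e-05 and 1.57e-05). Near Mlana, 9930021J03Rik was lower with both (-0.35 and -0.20, adjusted p = 6.33e-06 and 0.00231). Gm36126 was called with neither (-0.365 and 0.09, adjusted p = 0.495 and 0.866).

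Upstream of the members, 7 of 10 listed lineage factors and receptors were tested. With shAD4-2, 2 were higher and 2 lower, beside 34.2% and 34.8% of all genes. With shAD4-1, 2 were higher and 4 lower, beside 32.7% and 32.3% of all genes. Mitf had 131, 122 and 130 CPM in shAD4-2, 105, 103 and 104 CPM in shAD4-1 and 172, 127 and 119 CPM in control libraries, with control replicate 1 far above the rest. It fell 1.34-fold with shAD4-1 (-0.42, SE 0.09, adjusted p = 0.000397), or by 0.24 on the log2 scale without that control (adjusted p = 1.46e-05). With shAD4-2 it was not called (-0.12, SE 0.09, adjusted p = 0.217), and its sign changed without that control (0.07, adjusted p = 0.165). It was called lower without control replicate 3 (-0.22, adjusted p = 0.0186) and with no low-count filter (-0.12, adjusted p = 0.0263). It was 1.23-fold higher in shAD4-2 than in shAD4-1 (0.30, SE 0.09, adjusted p = 0.0185), a call lost in DESeq2 (adjusted p = 0.0908), in limma on FPKM (adjusted p = 0.0624 to 0.195) and without shAD4-1 replicates 1, 2 or 3 or shAD4-2 replicates 1 or 3 (adjusted p = 0.0505 to 0.0743). Sox10, which acts above Mitf, averaged 346 ± 5.95 CPM in shAD4-2, 312 ± 6.27 CPM in shAD4-1 and 362 ± 7.12 CPM in control libraries (SD, n = 3), lower with shAD4-1 (-0.21, SE 0.03, adjusted p = 2.98e-05) and at -0.07 with shAD4-2 (adjusted p = 0.101). The change of Sox10 with shAD4-2 was called with upper-quartile scaling (-0.0977, adjusted p = 0.0227) and in the 3 limma fits on FPKM (-0.122 to -0.121, adjusted p = 0.00344 to 0.00411).

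Mc1r, the melanocortin receptor that raises cAMP and Mitf on hormone binding, had 56.0, 50.9 and 49.2 CPM in shAD4-2, 47.2, 48.9 and 47.4 CPM in shAD4-1 and 142, 141 and 136 CPM in control libraries. It fell 2.69-fold with shAD4-2 (-1.43, SE 0.05, adjusted p = 2.11e-14) and 2.92-fold with shAD4-1 (-1.55, SE 0.05, adjusted p = 7.2e-15). Pax3, a factor of early melanoblasts, went the other way, with 272 ± 1.70 CPM in shAD4-2, 219 ± 7.52 CPM in shAD4-1 and 126 ± 6.23 CPM in control libraries (SD, n = 3). It rose 2.16-fold with shAD4-2 (1.11, SE 0.04) and 1.74-fold with shAD4-1 (0.80, SE 0.04). The receptor genes Kit and Ednrb, of the melanoblast, and Lef1, a Wnt factor, did not pass the filter on low counts.

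Of 61 listed genes of the pathway outside the members 55 were tested, and 21 were higher and 25 lower with shAD4-2, 20 higher and 27 lower with shAD4-1, and 11 higher and 13 lower between the hairpins. These shares stand beside the 69%, 65% and 27.4% of all genes given above. The median log2 fold changes were -0.07, -0.14 and 0.03. With both hairpins 18 were higher, 22 lower and 2, Mlph and Cdk2, opposite, beside 28.1%, 27.6% and 0.659% of all genes. Cdk2, whose span overlaps that of Pmel, was named after its values were seen. Among 19 listed genes of melanosome biogenesis, mainly of the sorting complexes, 11 were lower and 5 higher with both (27.6% and 28.1% of all genes). None of those changed 2-fold.

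Of the listed genes of melanosome chemistry and transport, those named here were picked for a change of at least 2-fold, apart from Rab27a. Changes of that size were called in 14.7% of all genes with shAD4-2 and 12.2% with shAD4-1. Mcoln3, a cation channel of endosomes and lysosomes, had 10.3, 9.96 and 9.28 CPM in shAD4-2, 30.9, 24.1 and 29.0 CPM in shAD4-1 and 113, 93.4 and 89.8 CPM in control libraries. It fell 9.98-fold with shAD4-2 (-3.32, SE 0.10, adjusted p = 2.06e-15) and 3.51-fold with shAD4-1 (-1.81, SE 0.09, adjusted p = 2.49e-12). Bace2, the protease that cuts Pmel into its fibril-forming part, fell 2.09-fold with shAD4-2 (-1.06, SE 0.08) and 2.82-fold with shAD4-1 (-1.50, SE 0.08). Sytl2, a Rab27a effector, fell 2.29-fold and 2.16-fold in the same order, while Rab27a itself, the GTPase that ties melanosomes to myosin Va, rose 1.34-fold (0.42, SE 0.05) and 1.23-fold (0.30, SE 0.05).

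Both listed genes of thiol supply that passed 2-fold were higher. Slc7a11, the cystine importer that feeds the red pigment pheomelanin, averaged 196 ± 13.9 CPM in shAD4-2, 413 ± 15.8 CPM in shAD4-1 and 147 ± 15.5 CPM in control libraries (SD, n = 3). It rose 1.33-fold with shAD4-2 and 2.82-fold with shAD4-1, and was lower in shAD4-2 than in shAD4-1 (-1.08, SE 0.06, adjusted p = 2.5e-09). Mfsd12, which brings cysteine into melanosomes, rose 2.18-fold with shAD4-2 (1.13, SE 0.07) and 2.04-fold with shAD4-1 (1.03, SE 0.07). Among 7 tested MITF targets outside the members, 4 were higher and 2 lower with both hairpins (28.1% and 27.6% of all genes), with Ppargc1a, a coactivator of mitochondrial genes, at 226 ± 9.25 CPM in shAD4-2, 221 ± 2.00 CPM in shAD4-1 and 82.2 ± 3.18 CPM in control libraries (SD, n = 3).

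**Figure D5:**
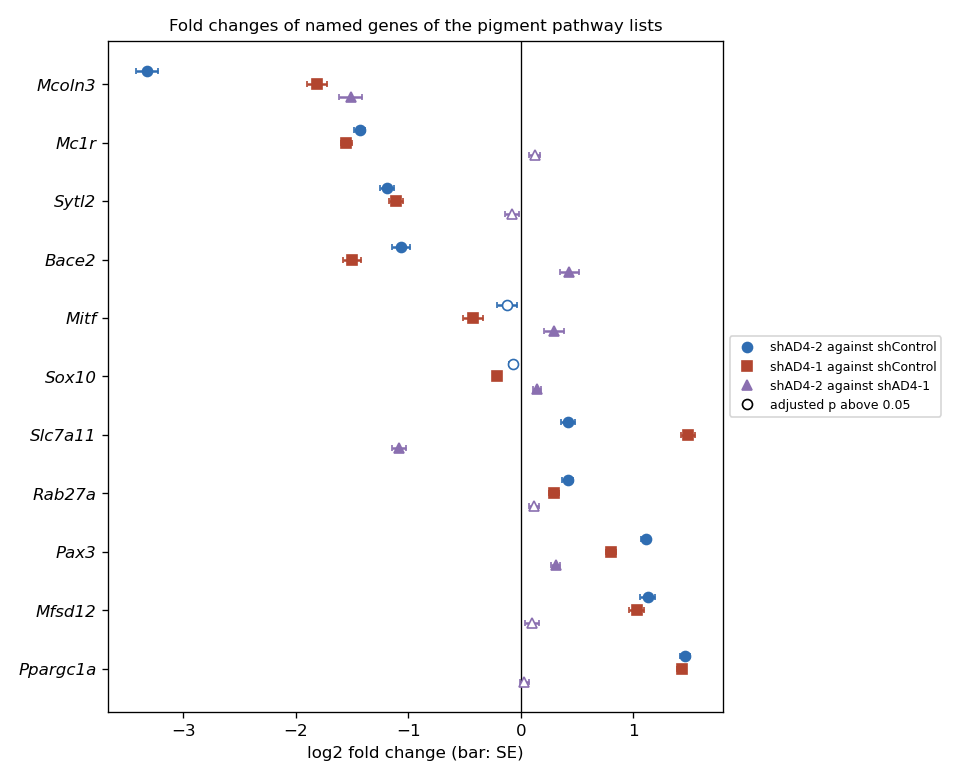
Log2 fold changes with SE bars from edgeR of 11 named genes of the pathway lists in 3 comparisons, with open symbols for adjusted p above 0.05. Mcoln3, Mc1r, Sytl2 and Bace2 lie left of 0 against control with both hairpins, and Pax3, Mfsd12 and Ppargc1a lie right of it.

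Some genes other than the members followed Tyr or Pmel over the 9 libraries, measured as the root mean square difference of log2 CPM after setting the control mean of each gene to 0. For Tyr the nearest of 10082 genes were Itga4, an integrin subunit, at 0.0728, Shc4 at 0.104 and Lgals8, a galectin, at 0.109, while Slc24a5 lay at 0.0955 and Tyrp1 at 0.183. For Pmel they were Poc1a, a centriole protein, at 0.0806, Ube2c, a ubiquitin-conjugating enzyme of mitosis, at 0.0847 and Mlph, the adaptor between Rab27a and myosin Va, at 0.115, while Mlana lay at 0.161 and Gpr143 at 0.168. Mlph averaged 133 CPM in shAD4-2, 76.1 CPM in shAD4-1 and 102 CPM in control libraries, higher with shAD4-2 (0.38) and lower with shAD4-1 (-0.43).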

How the data were processed

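RNA of 9 B16 libraries was analysed from the read counts and the FPKM that the authors deposited for 21676 genes. The submitters' processing notes name fastp, HISAT2, HTSeq and the build GRCm39; versions, annotation and strand setting: not given in the sources used here. The table's knockdown groups 1 and 2 were taken as shAD4-1 and shAD4-2 by their number. Library totals, 31.3 to 36.9 M, are sums of the deposited counts. Counts were fitted with edgeR 4.0.16 in R 4.3.3 (filterByExpr, TMM, glmQLFit, glmQLFTest, group as the only term), with Benjamini-Hochberg adjustment over 13807 tested genes at 0.05. An SE is the log2 fold change over the square root of F. The fit was also run on simulated counts with far fewer changed genes than were called here and the same spread for all genes. That run therefore does not show its error rate in these data. The members and lists were chosen with earlier results of these data known. Pathway genes were named if called with a log2 fold change of at least 1 either way in a comparison. Mitf, Sox10, Mc1r and Rab27a were named in any case. For Tyr and Pmel the 3 nearest genes averaging at least 5 CPM were named, without symbols starting with Gm or ending with Rik. Other genes beside or across a member were named for their position. Alternatives to this fit used RLE or upper-quartile factors, DESeq2 (1.42.0), all genes with a read, fits on the compared groups, a block for replicate number, fits lacking 1 library, limma 3.58.1 on log2(FPKM + 1) or log2(FPKM + 0.1), and, chosen after seeing the data, tables lacking the 13 mitochondrially encoded genes.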

Additional observations from a re-analysis of the deposited data

Results flagged for a closer look

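The comparison of the hairpins with each other tests whether their effects against the shared control differ, and these members and named pathway genes differed at an adjusted p of 0.05 in edgeR. As log2 fold changes of shAD4-2 over shAD4-1, Oca2 differed by 2.56, Pmel by 0.72, Mlana by 0.43, Gpr143 by 0.37 and Dct by 0.16, while Trpm1 stood at -0.34. Among the genes around them, Bace2 differed by 0.43, Pax3 by 0.31, Mitf by 0.30 and Sox10 by 0.15, while Slc7a11 stood at -1.08 and Mcoln3 at -1.51. Each group had 3 libraries, too few for a test of single outlying libraries.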

How the results depend on the processing

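No count of called members or pathway genes moved by 1.5 times in any alternative run. With the replicate number as a block, 8 members were called with shAD4-2 against control, 8 with shAD4-1 against control and 6 between the hairpins. In the same order, 45, 46 and 22 pathway genes were called. Over all tested genes, same-numbered libraries did not vary together about their group means (r between -0.12 and 0.0022). For the members, the share of reads fell from replicate 1 to replicate 3 in each group. It was 1.16, 1.12 and 1.06% in shAD4-2, 1.00, 0.988 and 0.981% in shAD4-1 and 1.33, 1.19 and 1.14% in control libraries. Whether the numbers pair the libraries for these genes was not tested. Left-out libraries gave 7 to 9, 8 to 9 and 5 to 7 members and 44 to 47, 43 to 48 and 19 to 31 pathway genes. In limma without a filter 7, 7 and 5 members were called. Sign changes occurred for changes that were not called in the fit described above. Slc45a2 with shAD4-1 was called after its sign changed, at 0.122 without control replicate 1 (adjusted p = 0.00406). Dct with shAD4-2 was -0.0117 with upper-quartile scaling, -0.0382 in the 3 limma fits and -0.0214 to 0.0851 with libraries left out. Tyrp1 between the hairpins was -0.00258 with upper-quartile scaling and -0.00346 to 0.0181 with libraries left out. With shAD4-1, Gpr143 was 0.00861 with no filter and -0.0721 to 0.123, and Slc45a2 -0.106 to 0.122, with libraries left out; Mitf with shAD4-2 was -0.219 to 0.0652. The cause of these changes was not tested. With symbols starting mt- there was no gene to leave out, so the 13 genes were taken by the symbols the table uses.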
